A study of Mus musculus with 8 samples.

Results

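The mRNA of naive CD3+ T cells stimulated with soluble anti-CD3/CD28 antibodies (sAb) was compared between 24 h and 3 h, which asks how the early response to this stimulus had moved on by the next day. These 2 arrays, found by their labels, are 2 of the 8 arrays of the series. Each condition has 1 array, so no difference between the sAb arrays carries a replicate error and no test of it exists. The cells came from C57BL/6J mice, were taken from spleen and lymph nodes by negative selection, and no engineered allele is named for them. With sAb the antibodies were in solution and were cross-linked with a secondary antibody. The label 24 h stands for 3 h of stimulation, a wash and 21 h of further culture. The other arrays used here are untreated naive T cells, the same antibodies immobilized on the plate (iAb) at 3 h and 24 h, and sAb with latrunculin A (sAb+LatA), an inhibitor of actin polymerization, at 3 h and 24 h. The mice of the work were female and in general 8 weeks old, and no age is given for these arrays alone. The sources used here do not say whether cells of several mice were pooled or whether all arrays used 1 cell preparation.

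Signals from the T cell receptor (TCR) and CD28 switch on immediate early transcription factors of the EGR, NR4A and AP-1 families within the hour, then NF-kB and NFAT targets and cytokines such as IL-2. Feedback proteins (phosphatases, RGS proteins, A20) are induced with them and shut the signals down. Cells that pass this stage raise MYC and their ribosome and mitochondrial content, cross the G1/S boundary with E2F factors, and enter DNA synthesis and mitosis at about the next day.

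Levels are log2 intensities of an Affymetrix array, and a difference of 1 is 2-fold. Genes of smell, taste and pheromone receptors, 1432 in all, are little used by T cells, and their 95th percentile on an array was taken as its background. It stood at 4.83 on the sAb 3 h array and 4.76 on the sAb 24 h array. Of 22180 genes, 11897 were above background at 3 h and 12161 at 24 h. The T cell markers Cd3d, Cd3e, Cd3g, Cd4, Cd8a and Cd8b1 were high, and lay between 10.01 and 12.11 at 3 h and between 9.89 and 11.70 at 24 h. The markers Cd247, Trac and Lck have no probe set listed with a single symbol and were not analysed here. Since these are bulk samples, fewer cells of a type and less RNA per cell cannot be told apart.

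Between 3 h and 24 h of sAb, lists of DNA replication and mitosis genes had the highest median differences of the 43 gene lists examined, and immediate early factors and signalling feedback genes the lowest. Of the 12520 genes that were above background at 3 h, at 24 h or at both times, 1192 (9.52%) were at least 1.5-fold higher at 24 h and 706 (5.64%) at least 1.5-fold lower. These shares are the background against which each gene list is read below, and higher or lower means past 1.5-fold throughout. At 2-fold the counts were 405 and 201, and at 4-fold 64 and 18. The median difference was 0.02 and its SD over genes 0.48. Among the chemosensory receptor genes that set the background, the SD was 0.30, and 2.23% and 3.63% of them were past the threshold in the upward and downward direction. When each array was centred on the median of its expressed genes, the sAb difference shifted by −0.09, and the share of past-threshold genes that were higher went from 62.8% to 48.4%, so the balance between higher and lower genes depends on the scaling.

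**Figure D1:**
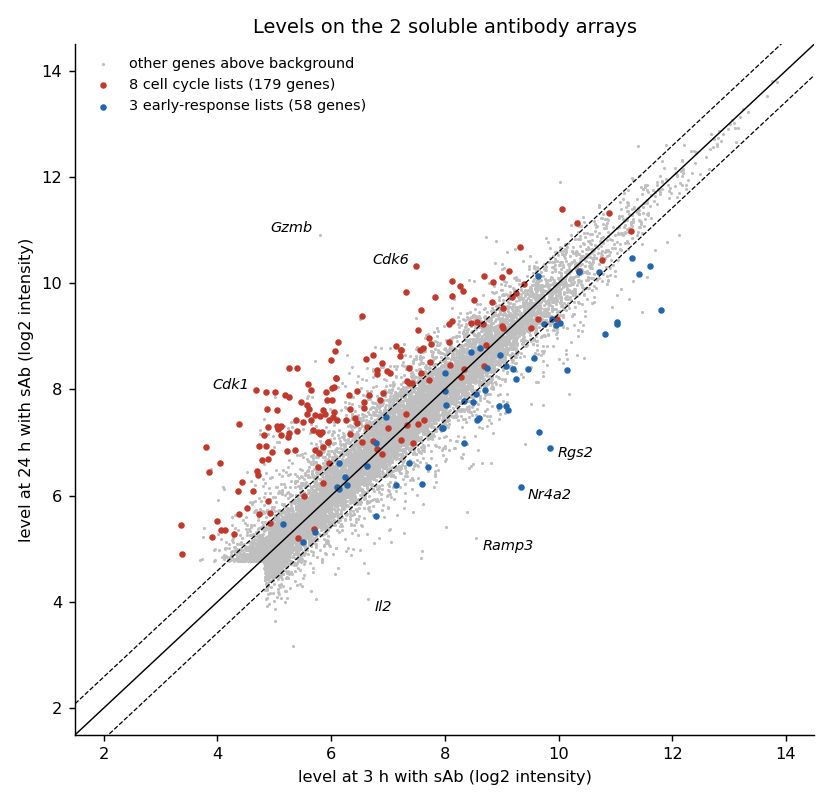
Level of each of the 12520 genes on the sAb 3 h array (x axis, log2 intensity) and the sAb 24 h array (y axis, log2 intensity), 1 point per gene, with equality as a solid line and 1.5-fold as dashed lines. The 179 genes of the 8 cell cycle lists (red) lie mostly above the upper dashed line, the 58 genes of the 3 early-response lists (blue) mostly below the diagonal, and Gzmb is the point farthest above it.

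The only test of time that the design allows takes the effect of time as equal under sAb, iAb and sAb+LatA and fits it to their 6 arrays with limma. At an adjusted p under 0.05 over 13245 genes, 1749 (13.2%) were higher and 971 (7.33%) lower at 24 h, 64.3% of them higher. With centred arrays, which shift the time effect by −0.15 on average, the counts were 1194 and 1677, or 41.6% higher. Of the 2720 genes called, 1510 were at least 1.5-fold apart in the same direction with sAb and 0 had the opposite sign, but since the sAb arrays are part of the fit this is no separate check of them. The time effects given below as estimate ± SE come from this model and speak for the 3 stimuli together.

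Most cell cycle genes were higher at 24 h. Of the 179 genes on 8 lists of replication, mitosis, nucleotide synthesis, G1 control, recombination repair and histones, 144 were higher with sAb, 39 of them at least 4-fold, and 1 was lower, with a median difference of 1.35. Of the 20 genes with the largest upward difference (predicted genes and gene segments left out), 14 belonged to these lists, which hold 179 of the 12520 genes. Since the lists were chosen with earlier results of these data known, this overlap only describes the ranking and tests nothing. Of the same 20 genes, 5 were under background at 3 h.

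The list of mitotic kinases, cyclins and other mitotic regulators had 19 of 21 genes higher (median 1.64). Ccnb1 was not matched on the array, so Ccnb2 was the only B cyclin among them. Kinetochore, condensin and spindle genes were higher in 41 of 44 cases (median 1.68). Cdk1, the kinase that drives entry into mitosis, was at 4.84 in naive cells, 4.68 at 3 h and 7.99 at 24 h. Its 3 h value lay under background, so the difference has a lower bound only, at least 8.96-fold, when values under background are raised to it. Bub1, a kinase of the spindle checkpoint, went from 3.80, also under background, to 6.91, which is at least 4.25-fold higher. Nuf2, a subunit of the NDC80 complex that holds microtubules at the kinetochore, was above background at both times and stood at 5.40 and 8.40, an 8.04-fold difference. Top2a, the topoisomerase that untangles sister DNA, went from 6.55 to 9.37, and Mki67, the proliferation marker Ki-67, from 7.32 to 9.83. Each of these 5 genes lay close to its naive level at 3 h, and the 24 h array was the high one. The time effect of Cdk1 over the 3 stimuli was 3.39 ± 0.11 (limma adjusted p = 0.00042) and that of Mki67 3.07 ± 0.19 (limma adjusted p = 0.001). The members that were not higher were Cdc25b, Pttg1, Cenpa, Ndc80 and Smc4, with differences from −0.28 to 0.05.

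Genes that load and fire replication origins were higher in 17 of 20 cases (median 1.53) and those of the fork in 23 of 25 (median 1.42). Cdc6, which loads the MCM helicase onto origins, stood at 5.01 at 3 h and 7.95 at 24 h, 7.69-fold higher. Mcm2 and Mcm5, subunits of that helicase, went from 8.32 to 9.85 and from 8.13 to 10.04. Gins1, part of the active helicase, was under background at 3 h (4.38) and at 7.35 at 24 h, at least 5.76-fold higher. These genes had a wide span of levels at 3 h, from under background to 8.32, and were higher at 24 h across it. Pclaf, a partner of the sliding clamp PCNA, went from 5.25 to 8.40, and Uhrf1, which carries DNA methylation to the daughter strand, from 6.08 to 8.72. Cdt1, Gins4 and Dbf4 fell short of the threshold, at 0.57, 0.37 and 0.22, as did Rpa1 at 0.12 and Pole2 at −0.05. For Pole, the catalytic subunit of DNA polymerase epsilon, the difference was 2.12 on the probe set used and 0.90 as the mean of its probe sets.

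The 250 bases upstream of the annotated start are shown for 4 genes that hold the letters of elements known from cell cycle promoters. They were picked for a large sAb difference among list members that hold the letters, and need not be typical of their lists. Sequences are from RefSeq (build GRCm38.p6), 5′ to 3′ on the strand of the gene, with the element in capitals on whichever strand it reads. Cdk1 (chr10:69352913-69353162 on the reverse strand) and Bub1 (chr2:127831860-127832109 on the reverse strand) are shown for CCAAT, the box bound by NF-Y, and Cdc6 (chr11:98907901-98908150 on the forward strand) and Mcm5 (chr8:75109259-75109508 on the forward strand) for TTTCCCGC or TTTGGCGC, forms of the E2F site.
Cdk1: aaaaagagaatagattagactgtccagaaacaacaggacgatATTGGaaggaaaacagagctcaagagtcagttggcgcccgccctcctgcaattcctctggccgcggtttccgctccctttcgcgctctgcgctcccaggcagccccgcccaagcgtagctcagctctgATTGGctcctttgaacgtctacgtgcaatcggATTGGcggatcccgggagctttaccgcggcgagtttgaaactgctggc
Bub1: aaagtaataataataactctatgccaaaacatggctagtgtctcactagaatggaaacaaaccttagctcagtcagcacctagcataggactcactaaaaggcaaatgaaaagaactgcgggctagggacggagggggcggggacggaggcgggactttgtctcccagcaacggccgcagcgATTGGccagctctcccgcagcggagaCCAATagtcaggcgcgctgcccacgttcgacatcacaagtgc
Cdc6: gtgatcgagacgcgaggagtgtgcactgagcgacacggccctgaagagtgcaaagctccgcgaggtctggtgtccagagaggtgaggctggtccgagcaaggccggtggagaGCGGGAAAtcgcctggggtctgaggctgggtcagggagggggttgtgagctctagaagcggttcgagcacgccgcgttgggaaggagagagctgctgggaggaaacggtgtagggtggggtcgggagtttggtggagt
Mcm5: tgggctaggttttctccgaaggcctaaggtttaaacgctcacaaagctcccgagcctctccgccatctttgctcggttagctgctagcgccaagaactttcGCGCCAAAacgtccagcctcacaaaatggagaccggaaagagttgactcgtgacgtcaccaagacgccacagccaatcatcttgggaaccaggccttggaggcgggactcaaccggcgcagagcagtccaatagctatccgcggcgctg
The Cdk1 sequence holds 3 CCAAT boxes, beginning 208, 80 and 48 bases before the start, and the Bub1 sequence 2, at 68 and 42 bases. The E2F letters begin 138 bases before the start in Cdc6 and 149 bases before it in Mcm5. Searched on both strands, CCAAT was present in 13 of 16 promoters of the mitotic kinase list and in 35.6% of all 16990 promoters, but it was frequent in other lists too, with 15 of 17 promoters of sterol synthesis, 6 of 7 of MHC class II and 11 of 16 of the lineage transcription factors. The E2F letters were in 5 of 15 promoters of the origin licensing list and in 1.81% of all promoters, but in 0 of 16 of the mitotic kinase list. TTTGAA, the core of the cell cycle homology region, was in 12 of 37 promoters of the kinetochore list and in 14.2% of all, against 2 of 20 of the fork list, 1 of 16 of recombination repair, 5 of 16 of the BCL-2 family and 3 of 7 of the guanylate-binding proteins. Both strings were thus also frequent in lists outside the cell cycle. None of these letter strings contains another. A match describes letters in a window and is not a binding site.

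Genes of nucleotide synthesis and salvage were higher in 17 of 28 cases (median 0.81), and none was lower. Rrm2, the S-phase subunit of ribonucleotide reductase, stood at 4.86 at 3 h and 7.95 at 24 h, a difference of 3.09 that was 2.28 as the mean of its 2 probe sets. Its partner Rrm1 went from 7.82 to 9.74, Tyms, the thymidylate synthase, from 5.91 to 7.95, and Tk1, the thymidine kinase, from 5.64 to 7.43. Shmt2, which makes one-carbon units in mitochondria, went from 9.33 to 10.68. The genes under the threshold included Hprt (0.57), Gmps (0.56), Umps (0.19) and Prps1 (−0.25), so 11 of the 28 genes did not pass 1.5-fold.

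The G1 list was mixed, with 10 of 21 genes higher and 1 lower (median 0.56). Cdk6, a G1 kinase that pairs with D cyclins, had the largest difference of the list, from 7.50 at 3 h to 10.33 at 24 h, and its naive level was 7.25. Its relative Cdk4 went from 8.85 to 10.03 and Cdk2 from 7.23 to 8.74. Ccne1, the E cyclin that partners CDK2, went from 6.02 to 7.79, and the E2F factors E2f1 and E2f8 from 6.03 to 7.48 and from 4.88 to 7.63. The kinase, cyclin E and E2F genes named here were thus on the higher side. The CDK inhibitors Cdkn1a, Cdkn1b and Cdkn1c stood at −0.45, −0.31 and −0.34, short of the threshold. The inhibitors Cdkn2c and Cdkn2d, the D cyclins and the other E2F genes of the list are not given singly, so no contrast of whole classes is drawn. The pocket protein gene Rb1, which restrains E2F, was lower by 0.64 on the log2 scale. Recombination repair genes were higher in 14 of 17 cases (median 1.52), among them Chek1, the S-phase checkpoint kinase, from 5.04 to 7.61, and Exo1, an end-resecting nuclease, from 5.60 to 8.10. Of 34 replication-dependent histone genes listed, 7 are on the array by a single symbol and 3 were above background, H1f5, H2bc3 and H4c12, at differences of 2.60, 1.18 and 1.32.

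**Figure D2:**
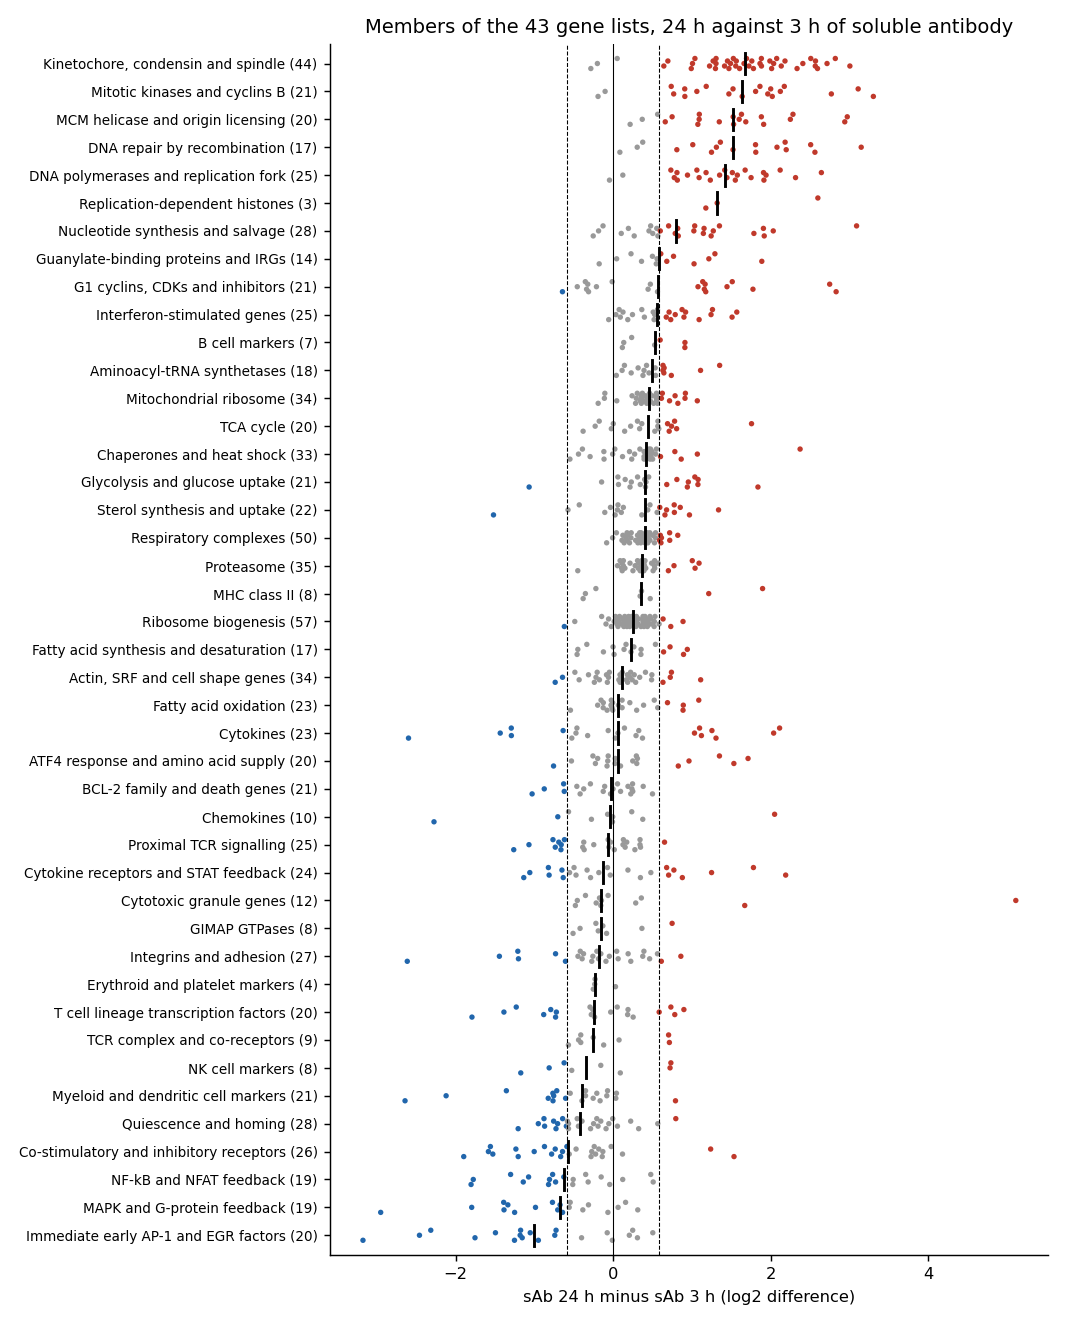
Difference between sAb 24 h and sAb 3 h (x axis, log2) of each member above background of the 43 gene lists (y axis, number of members in brackets), with the list median as a black bar and 1.5-fold as dashed lines. Red points are at least 1.5-fold higher at 24 h, blue points at least 1.5-fold lower, and the list medians run from −1.0 for immediate early factors to 1.68 for kinetochore genes.

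Most immediate early genes were lower at 24 h than at 3 h. The list holds the AP-1, EGR and NR4A families along with Ier2, Ier3, Srf, Klf6 and Klf10, and of its 20 genes above background 13 were lower and 0 higher (median −1.0). The NF-kB and NFAT feedback list had 10 of 19 lower and 0 higher (median −0.63), and the MAPK and G-protein feedback list 11 of 19 lower and 0 higher (median −0.67). Against the naive array, the medians of these lists, in this order, were 0.06, 0.35 and 0.06 at 3 h. At 24 h they were −0.69, −0.37 and −0.50, below the naive array. In the fit over the 3 stimuli, 13, 12 and 13 members of these lists were called lower and 0, 1 and 0 higher by limma. Of the 20 genes with the largest downward difference with sAb, 4 belonged to these lists.

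Nr4a1, the orphan nuclear receptor NUR77 and a reporter of TCR signal strength, was at 11.38 in naive cells, 11.81 at 3 h and 9.49 at 24 h, 4.98-fold lower at 24 h than at 3 h. Its time effect over the 3 stimuli was −2.77 ± 0.22 (limma adjusted p = 0.0013). Nr4a2 was at 9.61, 9.34 and 6.17 on these arrays, and Nr4a3 at 10.97, 11.03 and 9.27. The NR4A genes thus had naive levels close to those at 3 h, and the 24 h arrays were the low ones. Egr1, Egr2 and Egr3, zinc finger factors induced through the MAPK pathway, stood at 7.65, 8.19 and 7.50 in naive cells and at 8.95, 8.57 and 9.11 at 3 h. At 24 h they were at 7.69, 7.42 and 7.61, so Egr1 and Egr3 lay close to their naive level and Egr2 below it. Fosl2, an AP-1 subunit, was highest in naive cells at 10.75 and went from 9.65 at 3 h to 7.19 at 24 h. Myc, which drives growth, was at 8.77 in naive cells, 10.76 at 3 h and 10.43 at 24 h, a difference of −0.32 that is short of the threshold, and both antibody arrays lay above the naive array.

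Rgs2, a GTPase activator that ends G-protein signals, was at 10.84, 9.86 and 6.91 in naive cells, at 3 h and at 24 h. Its 24 h minus 3 h difference was −2.95 on the probe set used and −2.20 as the mean of its 2 probe sets. Dusp5, a phosphatase that acts on nuclear ERK, went from 10.16 to 8.36, Dusp1 from 9.08 to 7.69, and Spry1, a Sprouty inhibitor of the same pathway, from 7.61 to 6.22. Tnfaip3, which encodes A20 and restrains NF-kB, went from 11.03 to 9.22, and Nfkbid, an atypical IkB protein, from 10.82 to 9.05. The NF-kB subunits Rel, Relb and Nfkb2 were lower by 1.30, 1.14 and 1.07 on the log2 scale. Of the 25 proximal TCR signalling genes, 8 were lower and 1 higher (median −0.06), with the ubiquitin ligase gene Cblb (from 11.31 to 10.05) and the phosphatase gene Ptpn22 (from 11.70 to 10.63) at the low end. The TCR complex itself moved little, with Cd3e at 12.11 and 11.70 and Cd4 at 11.21 and 10.80, while the CD8 chains Cd8a (10.37 and 11.07) and Cd8b1 (10.71 and 11.43) were the 2 of 9 that passed the threshold, upward.

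Secreted factors did not move together. Of 23 cytokine genes above background, 7 were higher and 5 lower at 24 h, and the median, 0.06, turned to −0.03 when arrays were centred. Il2, the T cell growth factor, was at 3.15 in naive cells, 6.65 at 3 h and 4.05 at 24 h. The naive and 24 h values lay under background, so the 3 h array was at least 3.69-fold above that at 24 h. Ifng, the Th1 cytokine interferon-gamma, went the other way, from 4.95 in naive cells and 5.24 at 3 h to 7.28 at 24 h, 4.11-fold higher. Lta, the lymphotoxin gene, was at 7.65 and 8.96, and Lif, a cytokine of the IL-6 family, at 6.33 and 7.58. Cd40lg, the helper ligand for B cells, was lower (8.74 and 7.30), as was Tnfsf11, the RANK ligand (8.18 and 6.89).

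Among 10 chemokine genes, 1 was higher and 2 lower (median −0.04). Xcl1, a ligand for XCR1 on dendritic cells, was at 7.09 in naive cells, 10.18 at 3 h and 7.90 at 24 h. Ccl22, a ligand of CCR4, was at 5.23, 6.36 and 8.41 on the same arrays. Ccl3 stood at 5.73, 8.75 and 9.13, 0.38 apart between the antibody arrays. Gzmb, the granzyme B protease of cytotoxic granules, had the largest difference of all 12520 genes, with 5.52 in naive cells, 5.80 at 3 h and 10.91 at 24 h, 34.6-fold higher at 24 h than at 3 h. Its time effect over the 3 stimuli was 3.84 ± 0.43 (limma adjusted p = 0.0031), and that of Ifng, 0.52 ± 0.47, was not called. Of the 12 cytotoxic granule genes above background, Nkg7 was the only other past the threshold (8.13 and 9.80), and perforin, Prf1, stood at 7.46 and 7.11. The median of that list was −0.15, so granzyme B was not accompanied by its list.

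Cytokine receptor and STAT feedback genes were split, with 7 of 24 higher and 6 lower (median −0.13). Il2ra, the high-affinity chain of the IL-2 receptor, was at 8.21 in naive cells, 10.22 at 3 h and 11.10 at 24 h. Il12rb1, a chain of the IL-12 receptor, was at 5.73, 5.66 and 7.85, and Socs2, a STAT5 target, at 4.77, 6.63 and 8.41. The Socs2 difference was 1.78 on the probe set used and 1.17 as the mean of its probe sets. Ifngr1, the interferon-gamma receptor chain, was lower, at 12.25, 11.91 and 10.77. Of 26 co-stimulatory and inhibitory receptor genes, 13 were lower and 2 higher (median −0.57). The early activation marker Cd69 was at 10.42 in naive cells, 11.23 at 3 h and 9.71 at 24 h. The inhibitory receptor genes Tigit (8.50 and 6.60) and Pdcd1 (8.29 and 6.71) were lower, and Lag3 (5.34 and 6.88) was higher. Inhibitory receptors were thus found on both sides. Of 20 lineage transcription factors, 7 were lower and 4 higher (median −0.25), with Tox (9.51 and 7.72), Irf4 (10.94 and 9.56), Bcl6 (8.73 and 7.50) and Gata3 (8.79 and 7.91) among the lower.

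Genes of quiescence and homing were on the low side at 24 h, 9 of 28 lower and 1 higher (median −0.42). S1pr1, the receptor for egress from lymph nodes, was at 11.60 in naive cells, 10.77 at 3 h and 10.18 at 24 h. Klf2, the factor that drives S1pr1, was at 10.99, 10.48 and 9.90, Ccr7 at 11.90, 11.29 and 10.85, and Il7r, the IL-7 receptor, at 11.98, 11.58 and 11.29. Each of these 4 stepped down from naive to 3 h and from 3 h to 24 h, and of them only S1pr1 passed 1.5-fold between 3 h and 24 h. Cxcr4 (9.73 and 8.53) and the anti-proliferative genes Tob1 (8.43 and 7.48) and Btg2 (9.62 and 8.75) had larger differences. GIMAP GTPases of resting lymphocytes had 1 of 8 past the threshold, Gimap7, upward (7.22 and 7.97).

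About as many interferon-induced genes were past 1.5-fold upward as were not, and none was past it downward. Of 25 interferon-stimulated genes, 12 were higher and 0 lower (median 0.56), and of 14 guanylate-binding protein and immunity-related GTPase genes, 7 were higher and 0 lower (median 0.58). Oasl2, of the 2′-5′ oligoadenylate synthetase family, was at 6.81 in naive cells, 6.61 at 3 h and 8.18 at 24 h. Bst2, which encodes the virus-tethering protein tetherin, was at 8.90, 8.52 and 10.03. Xaf1 and Isg15 stood at 7.15 and 5.62 at 3 h and at 8.39 and 6.54 at 24 h. These genes had their naive and 3 h levels close together, whereas the guanylate-binding proteins, which act against intracellular pathogens, were already above the naive array at 3 h. Gbp10 was at 8.95, 10.02 and 11.91, Gbp8 at 7.39, 8.78 and 10.00, and Iigp1 at 7.35, 9.36 and 10.65 in naive cells, at 3 h and at 24 h. Gbp genes are near-identical in part, so probe sets may not keep them apart and single values are uncertain. In the model of the 3 stimuli, 6 of the 25 and 1 of the 14 were called higher by limma and 0 lower, against 13.2% of all genes called higher.

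Promoters of Bst2 (chr8:71537473-71537722 on the reverse strand) and Gbp7 (chr3:142530086-142530335 on the forward strand, 10.71 at 3 h and 11.48 at 24 h) are shown with the interferon-stimulated response element (ISRE) in capitals. It is taken here as a pair of GAAA runs with 2 free bases between them. These genes were picked for a large sAb difference among list members that hold it, at 1.51 and 0.77, and need not be typical of their lists. The window, strand and source are as above.
Bst2: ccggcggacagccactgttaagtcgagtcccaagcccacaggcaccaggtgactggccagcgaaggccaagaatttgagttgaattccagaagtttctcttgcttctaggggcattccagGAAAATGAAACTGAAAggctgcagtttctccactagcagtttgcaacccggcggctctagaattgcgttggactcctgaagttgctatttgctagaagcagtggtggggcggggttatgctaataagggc
Gbp7: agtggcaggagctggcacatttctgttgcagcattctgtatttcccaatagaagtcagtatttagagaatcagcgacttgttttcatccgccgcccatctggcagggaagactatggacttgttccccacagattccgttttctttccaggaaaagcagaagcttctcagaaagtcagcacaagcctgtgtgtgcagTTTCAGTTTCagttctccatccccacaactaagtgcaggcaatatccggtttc
In Bst2, overlapping matches begin 130 and 124 bases before the start, and in Gbp7 the match begins 53 bases before it, in the reverse orientation. Such letters were in 10 of 21 promoters of the interferon-stimulated list, in 6 of 7 of the guanylate-binding protein list and in 2.96% of all 16990 promoters. They were also in 3 of 12 of the cytotoxic granule list, 3 of 16 of recombination repair and 2 of 10 each of the B cell and NK lists. The remaining lists had lower shares, such as 0 of 23 for cytokines.

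Most metabolic genes did not pass 1.5-fold. The list medians were 0.45 for the TCA cycle, 0.40 for the respiratory complexes, 0.41 for glycolysis, 0.40 for sterol synthesis, 0.23 for fatty acid synthesis and 0.07 for fatty acid oxidation, the last of which turned to −0.03 with centred arrays. Of the 20 TCA cycle genes, 6 were higher and 0 lower, with Idh2, the mitochondrial NADP isocitrate dehydrogenase, from 7.03 to 8.79 at the top. Of all 12520 genes, 6542 had a difference above 0. Respiratory complexes had 48 of 50 genes above 0, but 7 past the threshold and 3 with centred arrays (median 0.31), and Ndufs7 (8.69 and 9.51) was the highest. This is a shift of many genes by less than 1.5-fold. Tpi1, the triosephosphate isomerase of glycolysis, went from 7.50 to 9.33 and Pgk1 from 9.78 to 10.85, while Slc2a1, the glucose transporter GLUT1, stood at 8.94 and 9.0 and Ldha at 7.99 and 8.05. Slc16a3, a lactate exporter, was lower (6.09 and 5.02). Of 21 glycolysis genes, 8 were higher and 1 lower.

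Among 22 sterol genes, 8 were higher, such as Lss, the lanosterol synthase (6.05 and 7.39), and 1 was lower, the cholesterol exporter Abca1 (7.28 and 5.76), which was at 8.04 in naive cells. Fatty acid synthesis had 4 of 17 higher, with the desaturase Fads1 (6.73 and 7.67) on top and Fasn, the fatty acid synthase, at 8.96 and 9.32. Fatty acid oxidation had 4 of 23 higher, such as Hadh, a short-chain hydroxyacyl-CoA dehydrogenase (7.62 and 8.71). Cpt1a, which controls entry of fatty acids into mitochondria, stood at 7.64 and 7.63, Acadm at 9.09 and 9.07, and Hadha at 10.32 and 10.31, so these 3 genes of the pathway were level between the 2 arrays. Acadvl was not level, at 7.21 and 7.60, a difference of 0.39 that is short of the threshold. Serine and amino acid supply had Phgdh (5.64 and 7.36) and Psat1 (6.88 and 8.42), which make serine, on the higher side, among 5 of 20 genes of the ATF4 list. The median of that list was 0.06 and turned to −0.03 with centred arrays.

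Most genes of protein synthesis and folding did not pass 1.5-fold either. Ribosome biogenesis genes had 51 of 57 differences above 0, against 6542 of all 12520 genes. Their median was 0.25, or 0.16 with centred arrays. Of them, 3 were past the threshold upward and Riok1, an atypical kinase of small subunit maturation, downward (9.09 and 8.47). Aminoacyl-tRNA synthetases were above 0 in 18 of 18 cases (median 0.50) with 7 past the threshold, or 3 with centred arrays, led by Wars (9.01 and 10.36) and Vars (7.33 and 8.44). Mitochondrial ribosomal proteins had 8 of 34 higher (median 0.45) and the proteasome 5 of 35 (median 0.36). The proteasome genes with the largest differences were the immunoproteasome subunits Psmb9, Psmb8 and Psmb10, at 1.09, 1.04 and 1.01, which interferon induces. Among 33 chaperones 5 were higher (median 0.41), with Sdf2l1, a protein of the endoplasmic reticulum, from 6.27 to 8.65, and the mitochondrial chaperonin gene Hspd1 from 9.15 to 10.22.

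Survival, shape and adhesion genes moved little as lists. Of 21 BCL-2 family and death genes 4 were lower and 0 higher (median −0.03), among them the pro-apoptotic Bcl2l11 (9.74 and 8.71) and Pmaip1 (6.66 and 5.79) and the death receptor gene Fas (8.60 and 7.97). Actin and cell shape genes had 4 of 34 higher and 2 lower (median 0.11), with Lgals1, the lectin galectin-1 (7.14 and 8.25), and Vim, vimentin (10.37 and 11.09), on the higher side. Integrin and adhesion genes had 6 of 27 lower and 2 higher (median −0.18), with the chemokine receptor genes Ccr8 (8.02 and 5.41) and Ccr4 (7.96 and 6.76) and the CD103 gene Itgae (7.0 and 5.79) lower.

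Several of the most lowered genes were not T cell signalling genes. Of the defining myeloid markers above background, 5 of 6 were lower too, against 9 of 21 genes on a longer myeloid list. Ramp3, a partner of the calcitonin receptor-like receptor, had the lowest difference of all 12520 genes, with 9.42 in naive cells, 8.54 at 3 h and 5.21 at 24 h, 10.1-fold lower at 24 h than at 3 h. Hmox1, heme oxygenase 1, was at 9.52, 7.58 and 4.82, and Sytl2, a Rab27 effector, at 8.28, 8.39 and 5.69. C1qb, a complement subunit made by macrophages, was at 8.94, 7.59 and 4.95, and Csf1r, the macrophage growth factor receptor, at 7.66, 6.66 and 4.54, under background at 24 h and at least 3.71-fold lower. These macrophage genes were highest in naive cells and lowest at 24 h. Of 9 defining myeloid and dendritic markers, 6 were above background on an sAb array and 5 of these were lower, none higher. Their summed signal stood at 10.06 in naive cells, 9.26 at 3 h and 8.57 at 24 h on the log2 scale, and Itgam, Itgax and Cd14 were not above background on either array. Among the 5 lower markers, Adgre1 stood at −0.82, or −0.34 with values raised to background. Over the longer list of 21 myeloid genes, 9 were lower, or 8 with values raised to background, and 1 was higher (median −0.40). NK markers summed to 9.99, 9.34 and 8.81, which was mostly the signal of Klrd1 (9.24 and 8.62, lower). Ncr1 went the other way, from 4.30, under background, to 5.03, and Klrb1c was not above background on either array. B cell markers summed to 7.41, 7.44 and 7.73, with Ms4a1 (4.80 and 5.71) past the threshold upward. The class II genes H2-Ab1 (8.30 and 7.92) and H2-Aa (6.73 and 6.38) were short of it, while H2-DMa, which loads peptide, was higher (7.89 and 9.10). What part other cells had in the lower genes was not tested.

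The same interval with the other 2 stimuli served to place the sAb values. With iAb, 2027 of 12605 genes (16.1%) were higher and 1195 (9.48%) lower at 24 h, and with sAb+LatA 1681 of 12778 (13.2%) and 945 (7.4%). The 3 pairs share no array, but they may have been normalised together, which the paper does not state. Over 12053 genes above background in all pairs, the sAb differences correlated with those of iAb at r = 0.707 and of sAb+LatA at r = 0.822, a description across genes, which are not replicates. Of 1161 genes higher with sAb, 832 (71.7%) were also higher with iAb and 13 lower, and these 832 were 42.3% of the genes higher with iAb. With sAb+LatA, 900 (77.5%) were also higher and 8 lower, which is 56% of its higher genes. Of 677 genes lower with sAb, 406 (60%) were lower with iAb, or 35.8% of its lower genes, and 471 (69.6%) with sAb+LatA, or 51.8%.

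Cell cycle lists had smaller median differences with sAb than with the other stimuli. The kinetochore list was at 1.68 with sAb, 2.88 with iAb and 2.32 with sAb+LatA. In the same order, the mitotic kinase list was at 1.64, 2.72 and 2.37, and the G1 list at 0.56, 1.51 and 0.82. Nucleotide synthesis was an exception, at 0.81, 0.49 and 0.70. The immediate early list was also closer to 0 with sAb, at −1.0 against −1.50 and −1.16, as was the MAPK and G-protein feedback list, at −0.67 against −0.99 and −1.07, but the NF-kB and NFAT list, at −0.63, −0.53 and −0.90, was not the closest. Egr1 shows it at the level of a gene, since its 3 h value was 8.95 with sAb, 10.30 with iAb and 9.19 with sAb+LatA, and its 24 h values were 7.69, 7.38 and 7.68. With 1 array per condition these differences between stimuli were not tested.

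**Figure D3:**
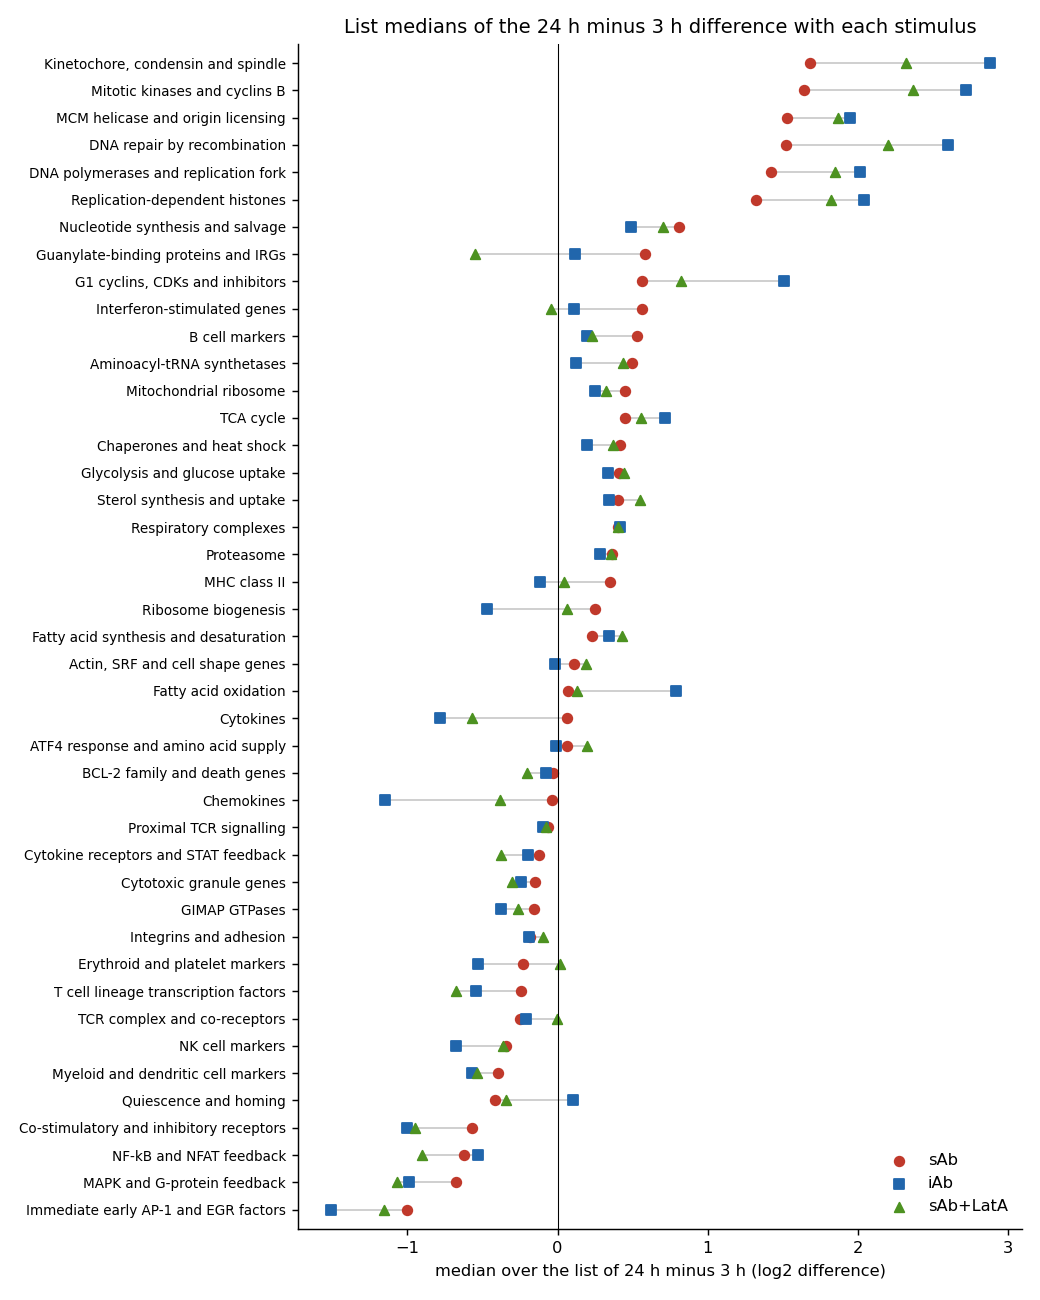
Median over each gene list of the 24 h minus 3 h difference (x axis, log2) with sAb (red circles), iAb (blue squares) and sAb+LatA (green triangles), lists (y axis) in the order of their sAb median. The kinetochore list stands at 1.68, 2.88 and 2.32, and cytokines, ribosome biogenesis and guanylate-binding proteins are among the lists whose medians lie on both sides of 0.

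A few lists took another sign or size with sAb. Cytokines had a median of 0.06 with sAb (−0.03 centred), −0.79 with iAb and −0.57 with sAb+LatA. Ribosome biogenesis stood at 0.25 with sAb, −0.47 with iAb and 0.06 with sAb+LatA, the last of which is −0.08 with centred arrays. Interferon-stimulated genes were at 0.56 with sAb, 0.11 with iAb (−0.12 centred) and −0.04 with sAb+LatA, and guanylate-binding proteins at 0.58, 0.11 (−0.11 centred) and −0.55. Fatty acid oxidation was at 0.07 with sAb (−0.03 centred), 0.79 with iAb and 0.13 with sAb+LatA (−0.01 centred). Quiescence and homing genes were at −0.42 with sAb, 0.11 with iAb (−0.12 centred) and −0.34 with sAb+LatA.

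Single genes are given by array. Ifng stood at 5.24, 8.0 and 7.05 at 3 h with sAb, iAb and sAb+LatA, and at 7.28, 7.25 and 7.34 at 24 h. Gzmb stood at 5.80, 9.06 and 7.81 at 3 h and at 10.91, 11.65 and 11.62 at 24 h. Ifng levels were thus close together at 24 h and far apart at 3 h, and the sAb array was the lowest at 3 h for both genes. Oasl2 was the reverse, with a wider range at 24 h than at 3 h, at 6.61, 7.35 and 7.87 at 3 h and 8.18, 6.23 and 6.69 at 24 h, the sAb array being the lowest early and the highest late.

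**Figure D4:**
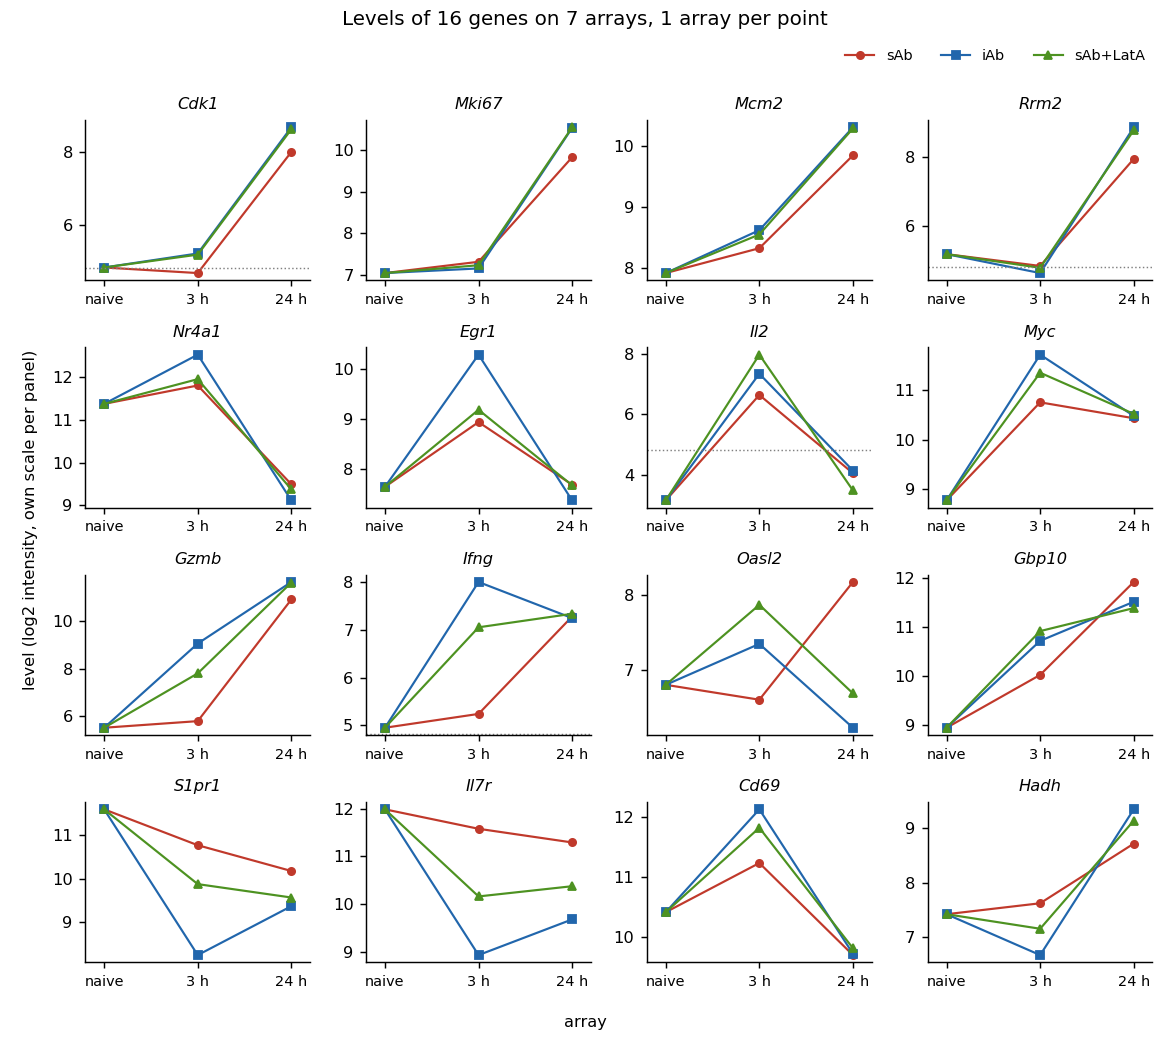
Level (y axis, log2 intensity, own scale per panel) of 16 genes on the naive array and on the 3 h and 24 h arrays with sAb (red circles), iAb (blue squares) and sAb+LatA (green triangles), 1 array per point, with the background of the sAb 3 h array as a dotted line where it falls in the panel. Cdk1, Mki67, Mcm2 and Rrm2 are low at 3 h and high at 24 h with each stimulus, Egr1 and Il2 peak at 3 h, and Ifng lies between 7.25 and 7.34 at 24 h, from 5.24 with sAb and 8.0 with iAb at 3 h.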

How the data were processed

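RNA of 1 sample per condition was hybridised to Affymetrix Mouse Gene ST 2.0 arrays. The authors normalised the raw data with RMA, and the paper does not say which arrays were normalised together. The values they deposited are read here as log2 intensities of probe sets, from their range of 1.20 to 14.30. No array was normalised again. Of 41345 probe sets, 23521 carry 1 gene symbol in the platform annotation, 1820 several and 16004 are not listed. The 23521 gave 22180 genes, and for 1082 genes with several probe sets the brightest over the 8 arrays was used. A gene was compared when either sAb array put it above background, and counted at 1.5-fold, a threshold of the study's heat map. Arrays have no depth, and precision is limited by their number and by signal over background. The additive model (stimulus and time, 2 residual degrees of freedom, Benjamini-Hochberg) was fitted with limma 3.58.1 in R 4.3.3 and tested on simulated data. Other steps used Python 3.11.15.

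The 43 lists hold 1096 genes, of which 990 were matched. Members, lists, motifs and named genes (the 20 largest differences on each side, up to 6 per list, defining genes, and list genes opposite in sign with sAb and iAb) were chosen with earlier results of these data known. Genes picked beside that rule are named as members short of the threshold or as marker genes. Raising values to background was chosen after seeing the data. Promoters are from RefSeq.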

Additional observations from a re-analysis of the deposited data

Results flagged for a closer look

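These list genes were at least 1.5-fold apart between 3 h and 24 h both with sAb and with iAb, but in opposite directions. The difference between the stimuli was not tested, since each condition has 1 array. In cytokine and interferon genes, Ifng stood at 2.04 with sAb, −0.76 with iAb and 0.28 with sAb+LatA on the log2 scale, and Lif at 1.26, −0.82 and −0.19. Oasl2 stood at 1.57, −1.12 and −1.18, Irf8, an interferon regulatory factor, at 0.78, −1.36 and −0.82, and Socs1, a feedback inhibitor of cytokine signals, at 0.71, −0.78 and −0.58. These 5 genes were higher at 24 h with sAb and lower with iAb. Irf8 fell short of 1.5-fold with sAb, at 0.50, as the mean of its probe sets. The myeloid lectin gene Clec7a stood at 0.79, −1.05 and −0.64, with a 3 h level under background (4.65). The ribosome biogenesis gene Dimt1 stood at 0.63, −0.64 and 0.04, and its sAb difference was 0.54 with centred arrays. In the other direction, Rflnb, a filamin-binding refilin, stood at −0.64 with sAb, 1.80 with iAb and 0.68 with sAb+LatA, and S1pr1 at −0.59, 1.12 and −0.31. Tnip1, a partner of A20, stood at −0.63, 0.61 and −0.49, and its iAb difference was 0.39 with centred arrays.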

How the results depend on the processing

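The count of genes apart with sAb rests on the threshold: at 2-fold 405 were higher and 201 lower, against 1192 and 706 at 1.5-fold. Under the other filters, scalings and probe set rules the counts stayed within 1.5 times of these, from 921 to 1340 higher and from 586 to 980 lower, the ends 921 and 980 being those of centred arrays. The limma counts for time fell to 587 higher and 287 lower without the 2 sAb+LatA arrays and became 1194 higher and 1677 lower with centred arrays. Without the 2 sAb arrays they were 1555 and 870, and without the 2 iAb arrays 1534 and 864. Leaving out 2 arrays takes away the same residual degrees of freedom whichever stimulus is dropped. The cause of these shifts was not tested. Of 43 list medians, those of cytokines, the ATF4 list and fatty acid oxidation changed sign with centred arrays, which shift the sAb differences by −0.093. Of 289 named genes, 22 values moved by more than the SD of the receptor genes (0.298), 15 with values raised to background and 7 with the mean of the probe sets. The 1.5-fold difference was lost for 11 named genes with centred arrays, 3 with the mean of the probe sets (Cox7b, Cycs and Irf8) and 8 with values raised to background (among them Il17a, Ncr1, Hpgd, Adgre1 and Ifit3b). Signal over background limits the comparison most for genes near 4.83, where only a bound can be given. The limma fit sets the 24 h array against the 3 h array within each of the 3 stimuli. No pairing by replicate number exists, since each condition has 1 array.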

Other observations

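Some genes had a larger difference with sAb than with the other stimuli. For St8sia6 with sAb+LatA, and for Ccl22 with iAb and sAb+LatA, the difference was also past 1.5-fold in the same direction. Gtf2ird1, a transcription factor of the TFII-I family, was at 5.77 in naive cells, 7.06 at 3 h and 5.13 at 24 h with sAb, a difference of −1.93, against −0.15 with iAb and −0.33 with sAb+LatA. St8sia6, a sialyltransferase, stood at 10.31, 10.01 and 8.57 on the naive, 3 h and 24 h arrays, a difference of −1.44 with sAb, against 0.09 with iAb and −0.99 with sAb+LatA. Ccl22 had a difference of 2.05 with sAb, 0.95 with iAb and 1.39 with sAb+LatA. In contrast, Ramp3 was lower by a like amount with each stimulus, at −3.34, −3.35 and −3.18. These genes are named by the rule for the largest differences, and the differences between stimuli were not tested.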
